A study of Arabidopsis thaliana with 36 samples.

Results

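Messenger RNA levels were compared between root and mature rosette leaf of wild-type Arabidopsis thaliana (ecotype Col-0) after 24 h without phosphate (Pi). The comparison rests on 6 of the 36 libraries of the study, 3 of root and 3 of leaf, and covers all 27444 genes of the table. Plants grew for 4 weeks in hydroponic culture with 200 µM Pi, at 22 °C with 16 h of light, and were then moved to 0 µM Pi. The whole study crossed 3 genotypes with 2 Pi levels and 2 organs, and the other genotypes were a ppsr1 T-DNA knockout (KO) and an AtPPSR1 overexpression line (OE), the latter described as a representative line, with no promoter named. Wild-type plants at 0 µM Pi carried no transgene, boxes held 4 plants, and the labels call the 3 replicates independent. The same 3 root and 3 leaf libraries per group exist for KO and OE at 0 µM and for the wild type at 200 µM.

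Leaf and root share a genome and divide the work of the plant. Leaf mesophyll captures light, fixes carbon, makes starch and loads sugar into the phloem, behind a waxy cuticle that stomata perforate. Root takes up water and mineral ions through hairs and epidermis. In the root endodermis, Casparian strips (lignin-based wall bands) and suberin (a lipid polyester) form barriers to solutes, and xylem carries water and ions to the shoot. Pi enters root cells through PHT1 transporters and is loaded into xylem by PHO1, and the transcription factor PHR1, restrained by SPX proteins when Pi is plentiful, drives the response to Pi shortage through the P1BS promoter element.

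Levels are FPKM, fragments scaled to coding length and to library size, so that genes can be compared per length. A log2 difference is root minus leaf on the scale log2(FPKM + 1), which understates differences of genes at low FPKM. It is given with its standard error (SE) and an adjusted p from limma with Benjamini-Hochberg adjustment over all tested genes. Testing covered the 19302 genes whose average over the 6 libraries reached 1 FPKM, and 4639 genes were listed at 0 in all 6. A gene is called root-high or leaf-high at an adjusted p under 0.05. A gene near 0 in 1 organ entered the test only through its level in the other, so its direction was set by that filter. Genes listed at 0 in leaf made up 5 of 16 tested root hair genes, 4 of 9 root meristem and cap genes and 2 of 11 Casparian strip genes, and 3 of 15 leaf regulators were listed at 0 in root. Further members of these lists were near 0 in that organ without being listed at 0, and the same limit holds for them.

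Depth recovered from the values was 8730000, 5380000 and 5830000 reads in the root libraries and 11430000, 10680000 and 9760000 in the leaf libraries. Among 326 genes with coding sequences over 4000 bases, leaf replicate 1 had a median level lower by 1.37 on the log2 scale than the other 2 leaf libraries, so values of very long genes differ between leaf replicates. Flower and seed genes, which mark organs that were not sampled, summed to between 1.41 and 3.6 FPKM over 12 genes in every library. Of the 100 genes with the largest root excess, the median level in leaf replicates 1, 2 and 3 was 0.16%, 0.0479% and 0% of the root mean. Of the 100 with the largest leaf excess, the median in root replicates 1, 2 and 3 was 0.257%, 0.116% and 0.231% of the leaf mean. Whether these low levels come from cells of the organ itself or from the other organ was not tested. In bulk tissue, fewer cells of a type and less RNA per cell cannot be told apart.

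Across all tested genes, 10235 were root-high, 53.0% of those tested, and 3208 were leaf-high, 16.6%. A log2 difference of at least 2, which is 4-fold on this scale, was reached by 3742 root-high genes (19.4%) and 1705 leaf-high genes (8.83%). In 3737 of the former and 1701 of the latter the root and leaf libraries did not overlap. Over all tested genes every root library stood above every leaf library in 57.0%, and below in 17.5%. The median log2 difference over all tested genes was 0.79, so most genes stood higher in root on this scale. The 10 most abundant genes took 14.0% to 15.6% of summed FPKM in leaf and 5.8% to 6.2% in root. Genes at 1 FPKM or more numbered 18828 to 19054 in root and 15837 to 16460 in leaf.

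After median-of-ratios scaling, which sets the typical gene equal between libraries, the median difference was 0.11. That scaling called 5822 genes root-high (30.2%) and 4794 leaf-high (24.8%), with 13.2% and 11.9% at 4-fold or more, and root-high genes fell from 76.1% to 54.8% of all calls. Differences are given below on the deposited scale, and counts of called list members are followed by the counts after this scaling. List counts are to be read beside the shares of all tested genes. These were 53.0% root-high and 16.6% leaf-high, and 30.2% and 24.8% after scaling. A gene described as root-high by less than about 1 log2 unit is therefore near the typical gene.

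**Figure D1:**
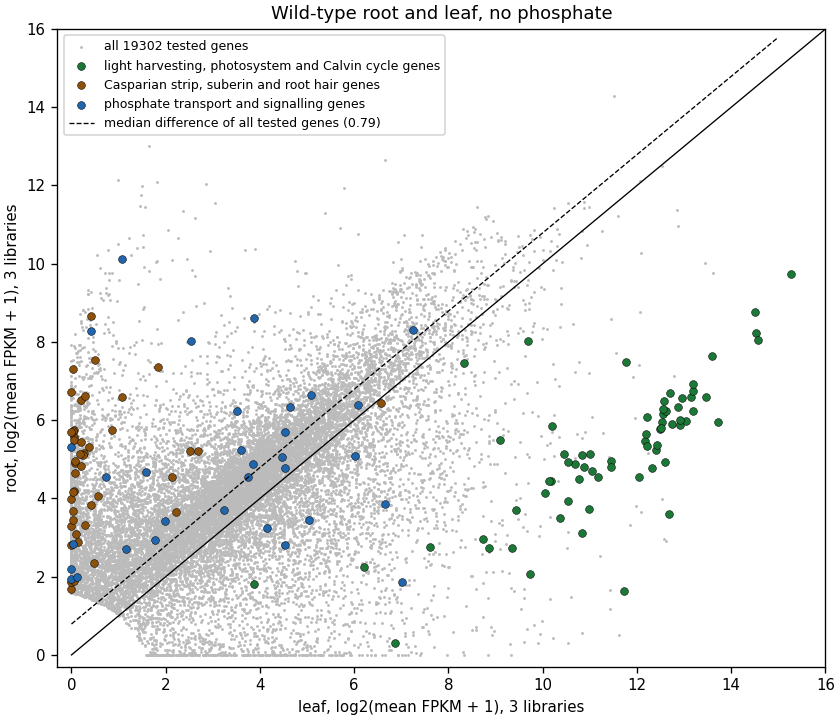
Each point is a tested gene of wild-type plants at 0 µM Pi, with the leaf level on the x axis and the root level on the y axis, both as log2(mean FPKM + 1) over 3 libraries. Green points (light harvesting, photosystem and Calvin cycle genes) all lie below the line of equality, brown points (Casparian strip, suberin and root hair genes) lie above it except KCS20, and blue points (phosphate genes) lie on both sides. The dashed line is the median difference of 0.79.

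The most abundant leaf messages encoded photosynthesis proteins. LHCB1.3 (AT1G29930), a chlorophyll a/b-binding antenna protein of photosystem II, stood at 44383.17, 41996.61 and 32536.05 FPKM in leaf and at 1054.21, 310.16 and 1193.33 FPKM in root. Its leaf libraries were all far above its root libraries, and it was the most abundant gene of leaf by mean. Since it shares 48.1% of its 31-base words with other genes, its level is uncertain between near-identical copies. PSBR (AT1G79040), a subunit of photosystem II, held 27074.29, 23352.38 and 22696.49 FPKM in leaf against 263.39, 191.53 and 343.55 FPKM in root. RBCS1A (AT1G67090), a small subunit of Rubisco, held 21005.67, 26356.9 and 22797.77 FPKM in leaf and 563.26, 213.88 and 516.61 FPKM in root. The groups did not overlap in either gene. The other 7 of the 10 most abundant leaf genes were LHCB1.5, RBCS3B, LHCA4, LHCA2 and PSBP1 of photosynthesis, the metallothionein MT3 and the stress-responsive KIN2, of which LHCB1.5, RBCS3B and KIN2 also share sequence with near-identical copies.

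All 21 light-harvesting genes and all 28 photosystem and electron transport genes were leaf-high, also after scaling. Their median log2 differences were -6.73 and -6.53, against 0.79 over all tested genes. The antenna genes ran from -9.12 for LHCB1.4, another shared-sequence copy, to -2.07 for LHCB7, a minor relative of the antenna proteins. LHCB7 held 17.42, 11.21 and 12.39 FPKM in leaf and 3.14, 2.83 and 1.57 FPKM in root. It was thus far below the major antenna genes in leaf, while its libraries still did not overlap. The photosystem genes lay closer together, between -7.65 for PSBQ2 and -5.68 for PETC, the Rieske protein of the cytochrome b6f complex.

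The light-harvesting genes summed to 184951, 181441 and 143724 FPKM in leaf and to 2867, 867.3 and 2904 FPKM in root. Root replicate 2 was the lowest of the root libraries in this sum. Light-harvesting, photosystem and Calvin cycle genes, 68 in all, took 24.1% to 28.4% of reads in leaf and 0.236% to 0.511% in root. The root share differed between genes of these pathways: LHCB1.3 held at least 310.16 FPKM in every root library, whereas CA1 (AT3G01500), a plastid carbonic anhydrase with 1735.59, 2146.86 and 1593.82 FPKM in leaf, held 0.77, 0.18 and 0.49 FPKM in root.

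A promoter of this group was chosen for holding both motifs named below, and it is not typical. Among the 28 photosystem genes only PSBQ2 and PSAH2 held both in this window. The sequence is the 250 bases before the annotated gene start of PSBQ2 (AT4G05180), from the RefSeq annotation of TAIR10.1, at chr4:2673244-2673493 on the minus strand. Capitals mark the G-box CACGTG, a core bound by bZIP and bHLH factors, and the I-box GATAAG, searched on both strands.
PSBQ2: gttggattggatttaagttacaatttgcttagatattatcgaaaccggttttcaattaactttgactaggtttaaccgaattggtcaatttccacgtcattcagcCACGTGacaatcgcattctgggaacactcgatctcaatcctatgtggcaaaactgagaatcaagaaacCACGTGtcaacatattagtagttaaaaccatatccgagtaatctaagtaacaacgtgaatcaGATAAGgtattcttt
The G-box was found in the windows of 5 of 21 light-harvesting genes (23.8%) and 6 of 28 photosystem genes (21.4%), against 6.49% of all 27442 windows read. The I-box was found in 4 (19.0%) and 7 (25.0%) of them, against 12.3% of all windows. Neither motif was particular to these lists. The G-box was found in 5 of 11 clock windows (45.5%) and 3 of 9 potassium and sodium transport windows (33.3%), and in 0.00% of root hair windows. The I-box was found in 3 of 11 Casparian strip windows (27.3%), a list of root-high genes, and in 0.00% of mitosis windows. Differences between these shares were not tested. Among genes leaf-high by 4-fold or more the shares were 9.04% for the G-box and 18.2% for the I-box, and among those root-high by as much they were 6.07% and 11.7%. A match is a description of letters in this window and not evidence of a bound factor.

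All 19 Calvin cycle genes were leaf-high, also after scaling, with a median of -6.14. The lowest value was that of RBCS2B, at -10.49 and shared with near-identical copies. CP12-2 (AT3G62410), a regulator that binds phosphoribulokinase, stood at 1851.46, 1599.54 and 2004.6 FPKM in leaf and 7.81, 6.1 and 9.1 FPKM in root, a log2 difference of -7.72 (SE 0.19, limma adjusted p = 1.28e-07). The smallest differences were those of TIM (-0.88), the plastid triose-phosphate isomerase, and TKL1 (-1.65), a transketolase. Both enzymes take part in other plastid pathways too, and both were plainly present in root, TIM at 150.73 to 197.13 FPKM and TKL1 at 238.01 to 278.71 FPKM.

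In photorespiration, which recovers carbon from the oxygenation product of Rubisco, 13 of 14 genes were leaf-high, and 14 after scaling, with a median of -4.53. GOX1 (AT3G14420), a glycolate oxidase, held 1656.79, 1245.73 and 1529.75 FPKM in leaf against 9.23, 4.04 and 10.26 FPKM in root. GDCH (AT2G35370), the H protein of glycine decarboxylase, held 588.97, 498.63 and 519.96 FPKM in leaf and 9.89, 7.84 and 10.34 FPKM in root. GLDP2, the second P protein of the same complex, was called leaf-high after scaling alone, with 112.1, 115.4 and 120.62 FPKM in root, 121.79, 95.97 and 129.58 FPKM in leaf, and overlapping groups. Its relative GLDP1 was leaf-high by -3.43. GLU1 (AT5G04140), the ferredoxin-dependent glutamate synthase that reassimilates photorespiratory ammonium, is a very long gene with 59.5, 248.9 and 338.74 FPKM in leaf and 0.81 to 1.05 FPKM in root. Its log2 difference of -6.46 was -7.21 without leaf replicate 1.

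Of 29 chlorophyll and carotenoid genes 28 were tested, 25 were leaf-high and 1 was root-high, and after scaling 27 and 0, with a median of -2.67. CRD1, a cyclase subunit of chlorophyll synthesis, stood at 1023.8, 1107.63 and 1004.13 FPKM in leaf and 33.89, 20.09 and 38.78 FPKM in root. PORC, a light-dependent protochlorophyllide reductase, had the largest difference of the list at -5.14. HEMA2 was the root-high member, a glutamyl-tRNA reductase with 15.45, 15.05 and 23.05 FPKM in root against 5.87, 9.04 and 9.19 FPKM in leaf, and it was not called after scaling. Its relative HEMA1 was leaf-high by -1.97. PORA lay below the filter.

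Starch and sugar export genes were leaf-high in 19 of 21 cases on both scales, with a median of -2.35. SWEET11 (AT3G48740), a sucrose exporter of the phloem parenchyma, held 278.63, 102.2 and 180.84 FPKM in leaf and 1.18, 0 and 0.39 FPKM in root. APE2, the triose phosphate and Pi exchanger of the chloroplast envelope, held 1861.11, 1682.21 and 1558.18 FPKM in leaf and 53.31, 25.31 and 69.98 FPKM in root. GPT1, which brings glucose 6-phosphate into non-green plastids, went the other way, at 114.31, 120.37 and 115.71 FPKM in root and 40.32, 32.85 and 31.33 FPKM in leaf, a log2 difference of 1.72 (SE 0.17, limma adjusted p = 3.68e-05).

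Of 16 wax and cutin genes 15 were tested, 10 were leaf-high and 3 root-high, and 10 and 2 after scaling. CER6 (AT1G68530), an elongase of very-long-chain fatty acids for wax, stood at 619.17, 621.98 and 614.43 FPKM in leaf and 3.07, 3.61 and 3.22 FPKM in root, a log2 difference of -7.17 (SE 0.15, limma adjusted p = 8.41e-08). CER1, needed for wax alkanes, held 88.19, 180.32 and 151.99 FPKM in leaf and at most 0.36 FPKM in root. WSD1, a wax ester synthase, was listed at 0 in root. The root-high members were CYP86A4 (2.24), a fatty acid hydroxylase, LACS2 (1.58), an acyl-CoA synthetase, and GPAT4 (1.04), an acyltransferase, of which GPAT4 was not called after scaling.

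Of 15 stomatal and guard cell genes 9 were tested, of which 7 were leaf-high and 9 after scaling, with none root-high. The 15 genes summed to at most 15 FPKM in any root library. Members near 0 in root, such as FAMA and SLAC1, passed the filter through leaf, which set their direction. FAMA, a late regulator of the guard cell lineage, held 4.85, 15.02 and 9.38 FPKM in leaf and at most 0.41 FPKM in root. SPCH, MUTE and EPF2, which act early in the lineage, were listed at 0 in all 6 libraries. The guard cell anion channel SLAC1 was listed at 0 in root and held 1.83, 4.7 and 3.92 FPKM in leaf.

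Leaf regulators included 15 tested genes, of which 14 were leaf-high on both scales. GLK1 (AT2G20570), an activator of chloroplast development, stood at 630.76, 412.27 and 452.45 FPKM in leaf and at 0.52, 0.57 and 0.52 FPKM in root, a log2 difference of -8.32 (SE 0.21, limma adjusted p = 1.28e-07). Its relative GLK2 was less skewed, with 360.34, 197.38 and 253.82 FPKM in leaf and 10.06, 6.72 and 13.74 FPKM in root. YAB1, YAB2 and YAB5, YABBY factors of the lower leaf side, were listed at 0 in every root library and stood at 16.43 to 50.35 FPKM in leaf. AS1, a MYB factor of leaf patterning, was not called, at 17.94, 21.88 and 17.56 FPKM in root and 21.39, 10.25 and 16.33 FPKM in leaf.

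**Figure D2:**
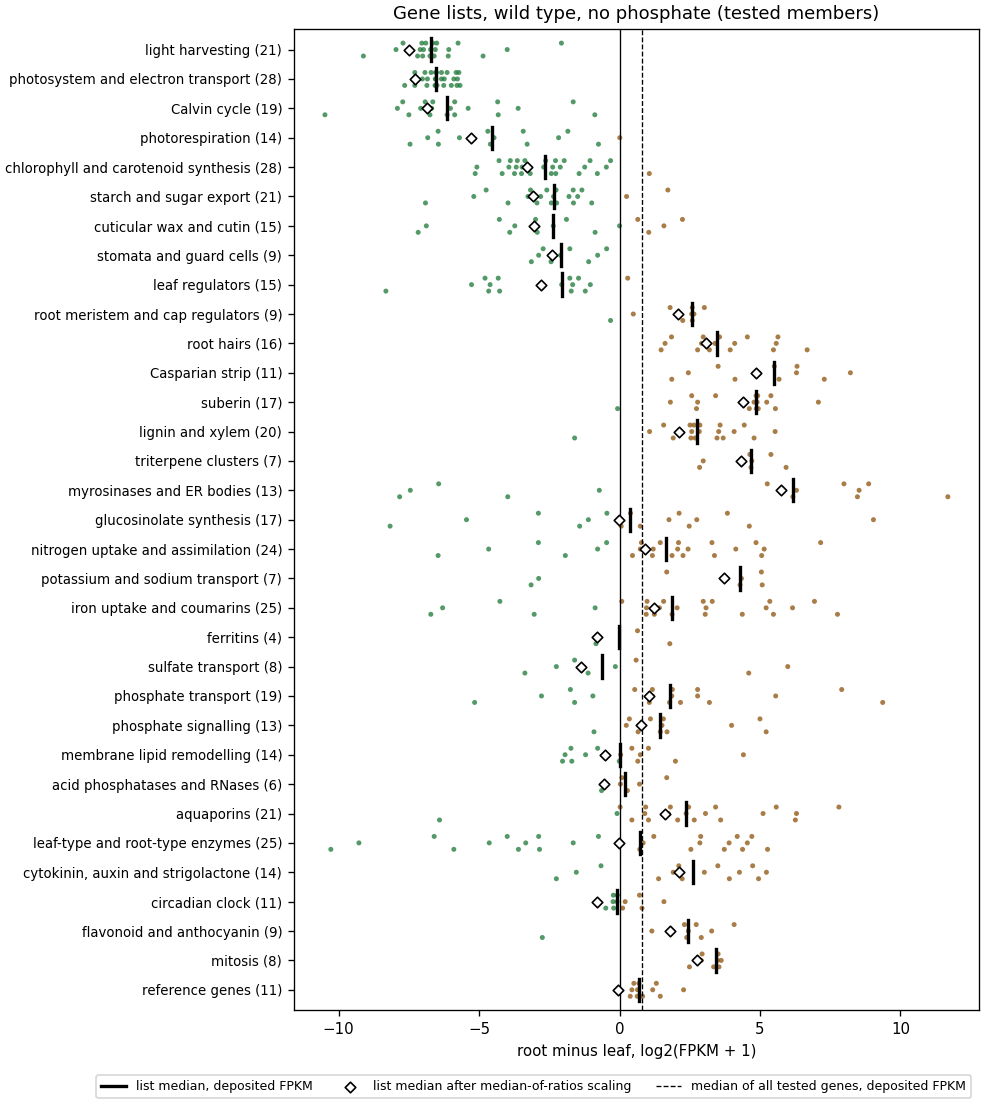
Log2 difference, root minus leaf, of every tested member of 33 gene lists, with the number of tested members in parentheses. Bars mark list medians on the deposited scale, diamonds list medians after median-of-ratios scaling, and the dashed line the median of all tested genes at 0.79. Lists of photosynthesis lie at the left, with medians of -6.73 for light harvesting and -6.53 for the photosystems, and the Casparian strip list lies at 5.51.

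Root libraries held the genes of the endodermal barriers. All 11 Casparian strip genes were root-high, also after scaling, with a median of 5.51 against 0.79 over all tested genes. Since the 11 genes summed to at most 8.77 FPKM in any leaf library, most passed the filter through root, which set their direction. CASP1 (AT2G36100), a membrane scaffold of the strip, held 371.92, 321.06 and 521.07 FPKM in root and 0.56, 0.3 and 0.16 FPKM in leaf, a log2 difference of 8.22 (SE 0.24, limma adjusted p = 1.81e-07). LAC3 (AT2G30210), a laccase, held 152.61, 156.2 and 164.56 FPKM in root and at most 0.05 FPKM in leaf. The 3 root libraries were high and the leaf libraries near 0 in both genes. CASP5 was listed at 0 in leaf, and MYB36, which switches the CASP genes on, stood at 14.06, 20.03 and 16.78 FPKM in root and at most 0.09 FPKM in leaf.

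Suberin genes were root-high in 16 of 17 tested cases of 18 listed, also after scaling, with a median of 4.86. In leaf the 18 genes summed to 73.5, 148.5 and 100.7 FPKM, most of it from KCS20. Most other members thus passed the filter through root, which set their direction. CYP86A1 (AT5G58860), a fatty acid hydroxylase of root suberin, held 190.85, 174.73 and 185.15 FPKM in root and 0.34, 0.91 and 0 FPKM in leaf, a log2 difference of 7.08 (SE 0.26, limma adjusted p = 3.77e-07). ASFT, which adds ferulate to suberin, was at 5.55, FAR4, a fatty acyl reductase, at 5.39, and MYB92, a suberin regulator, at 5.24. KCS20, an elongase that also serves cuticular wax, was not called on the deposited scale, with 76.27, 90.69 and 91.4 FPKM in root and 63.63, 129.6 and 88.64 FPKM in leaf, and was leaf-high after scaling.

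All 16 tested root hair genes, of 17 listed, were root-high, 15 of them after scaling, with a median of 3.48. The 17 genes together summed to at most 6.42 FPKM in any leaf library. Most members thus passed the filter through their root level, and their root-high direction follows from it. PRP3, a proline-rich wall protein, was listed at 0 in leaf and held 80.59, 97.64 and 133.51 FPKM in root. EXPA7 (AT1G12560), a root hair expansin, held 39.33, 38.39 and 62.19 FPKM in root and at most 0.12 FPKM in leaf. Among the regulators, RHD6 held 4.21, 10.98 and 7.27 FPKM and RSL4 held 8.11, 5.26 and 4.64 FPKM in root. CPC, a mobile MYB protein that promotes hair fate, had the smallest difference at 1.48 and was the member not called after scaling.

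Of 14 root meristem and cap regulators 9 passed the filter, 8 were root-high and 7 after scaling. SMB, BRN1 and BRN2, NAC factors of the root cap, were listed at 0 in leaf and held 3.12 to 7.43 FPKM in root. SHR, which moves from stele to endodermis, was the most abundant at 41.61, 40.75 and 31.07 FPKM in root and 8, 7.67 and 5.78 FPKM in leaf. ACR4, a receptor kinase, was not called, at 0.98, 1.94 and 0.7 FPKM in root and 0.65, 3.3 and 1.71 FPKM in leaf. The quiescent centre gene WOX5 lay below the filter at 1.67, 1.02 and 1.25 FPKM in root and at most 0.48 FPKM in leaf.

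All 8 mitosis genes were root-high, also after scaling, with a median of 3.42. They summed to 7.07, 19.6 and 11.9 FPKM in leaf. Members averaging under 1 FPKM in leaf passed the filter through root, which set their direction. CDKB1;1 (AT3G54180), a cyclin-dependent kinase of the G2 to M transition, held 19.95, 20.98 and 19.37 FPKM in root and 1.13, 0.8 and 0.33 FPKM in leaf. KN, the syntaxin of cell plate formation, held 47.86, 66.12 and 47.63 FPKM in root and 0.84, 7.62 and 5.82 FPKM in leaf.

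Lignin and xylem genes were root-high in 19 of 20 cases, 17 after scaling, with a median of 2.76. PAL4, a phenylalanine ammonia-lyase, held 62.32, 69.37 and 60.26 FPKM in root and 0.86, 0.4 and 0.05 FPKM in leaf, a log2 difference of 5.54 (SE 0.26, limma adjusted p = 9.25e-07). PAL1 (4.79), 4CL2 (4.44) and C4H (4.08), of the same early pathway, followed. PAL3 was the leaf-high member, at 5.96, 9.1 and 11.23 FPKM in leaf and 2.46, 2.84 and 1.31 FPKM in root. The secondary wall cellulose synthases CESA4, CESA7 and CESA8 lay close together, between 2.57 and 2.84.

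PYK10 (AT3G09260), the beta-glucosidase of endoplasmic reticulum (ER) bodies that hydrolyses indole glucosinolates, had the largest root excess of all tested genes. Its root libraries held 7755.73, 9365.02 and 7398.98 FPKM and its leaf libraries 5, 1.19 and 0.13 FPKM, a log2 difference of 11.69 (SE 0.52, limma adjusted p = 7e-07). The leaf libraries differed among themselves but all stayed far below root. Its binding partner PBP1 held 3038.46, 2937.64 and 2968.38 FPKM in root and 8.19, 5.11 and 8.34 FPKM in leaf. NAI2, which builds ER bodies, held 240.12, 514.82 and 282.92 FPKM in root and at most 0.6 FPKM in leaf, and BGLU22 (8.87) and BGLU21 (8.47), further ER body glucosidases, followed.

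The leaf myrosinases TGG1 and TGG2, which hydrolyse glucosinolates in myrosin cells, ran against these genes. TGG1 (AT5G26000) held 338.13, 1075.69 and 591.58 FPKM in leaf and 1.55, 0.34 and 4.43 FPKM in root, a log2 difference of -7.83 (SE 0.55, limma adjusted p = 6.45e-06). ESP, which steers the products towards nitriles, was listed at 0 in root and held 74.49, 99.33 and 84.86 FPKM in leaf. The root myrosinases TGG4 (6.3) and TGG5 (6.17) were root-high and share much of their sequence with each other. BGLU18, the wound-induced ER body glucosidase of leaf, was leaf-high by -3.98. In all, 8 of 13 genes of this list were root-high and 4 leaf-high on both scales.

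Glucosinolate synthesis genes were split between the organs, with 8 of 17 root-high and 5 leaf-high, and 7 and 7 after scaling. Among all tested genes 53.0% were root-high and 16.6% leaf-high, and 30.2% and 24.8% after scaling. CYP79F1 (AT1G16410), which starts the synthesis of aliphatic glucosinolates, held 204.81, 288.17 and 454.82 FPKM in leaf and 0.14, 0 and 0 FPKM in root. Its paralog CYP79F2 (AT1G16400) had the reverse pattern, at 82.51, 112.13 and 95.25 FPKM in root and 3.41, 5.27 and 10.22 FPKM in leaf. The difference was -8.17 (SE 0.29, limma adjusted p = 3.52e-07) for CYP79F1 and 3.84 (SE 0.33, limma adjusted p = 1.99e-05) for CYP79F2. Another pair of relatives in the chain-elongation step, MAM1 (-1.42) and MAM3 (4.62), also lay on opposite sides. The regulators MYB29 and MYB76 were leaf-high and nearly absent from root, whereas MYB28 was not called on the deposited scale and leaf-high after scaling.

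On the indole side CYP81F4 (AT4G37410), which modifies the indole ring, held 915.98, 988.18 and 701.1 FPKM in root and 0.75, 0.5 and 0.68 FPKM in leaf, a log2 difference of 9.04 (SE 0.19, limma adjusted p = 8.41e-08). CYP79B2 (2.75), CYP79B3 (2.12) and the regulator MYB34 (2.48) were root-high as well. Of 11 genes in the triterpene clusters, which make root defence compounds, 7 passed the filter. All 7 held at most 0.12 FPKM in any leaf library and passed through their root level alone, so their root-high calls follow from the filter. The thalianol synthase THAS1 was listed at 0 in leaf and held 19.11, 36.58 and 22.52 FPKM in root. CYP705A5 of the same cluster held 45.62, 77.3 and 67.91 FPKM in root and at most 0.12 FPKM in leaf.

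**Figure D3:**
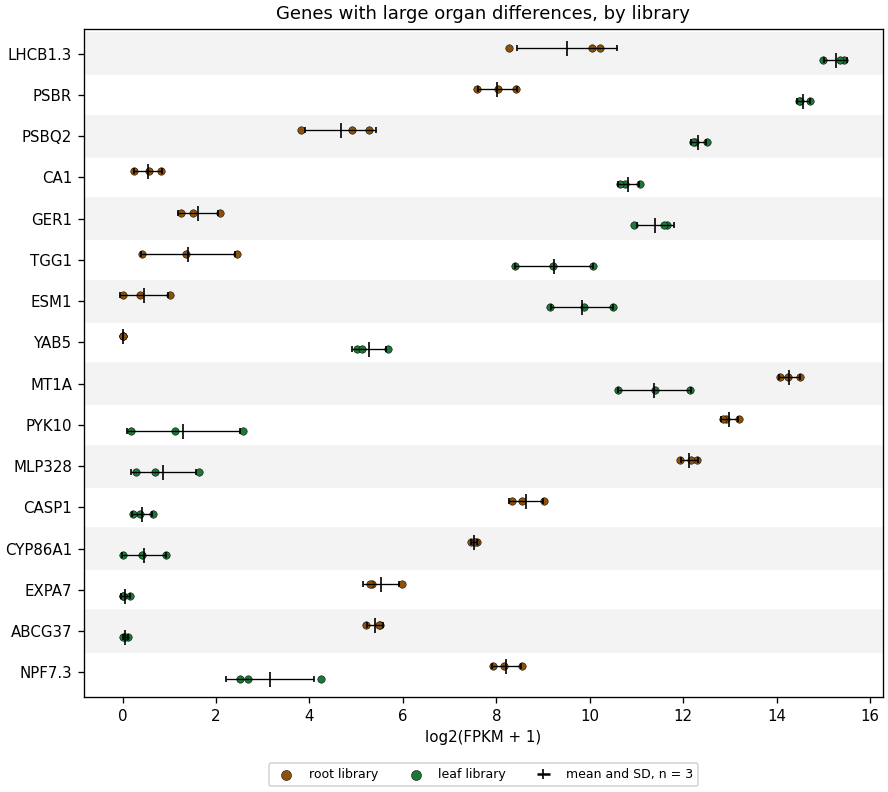
Levels of 16 genes as log2(FPKM + 1) in each of the 3 root (brown) and 3 leaf (green) libraries of wild-type plants at 0 µM Pi, with mean and SD. In every gene shown the root and leaf libraries do not overlap. PYK10 lies between 7398.98 and 9365.02 FPKM in root and at or below 5 FPKM in leaf, and CA1 between 1593.82 and 2146.86 FPKM in leaf and below 1 FPKM in root.

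Several enzymes come in a leaf form and a root form, and all 25 genes of this list were called, 13 root-high and 12 leaf-high, and 10 and 12 after scaling. The root-high count is near the 53.0% of all tested genes, of which 16.6% were leaf-high. Ferredoxin carries electrons from photosystem I in leaf and towards nitrite and sulfite reductase in root plastids. FD2 (AT1G60950), the main leaf ferredoxin, held 3654.5, 4367.42 and 4581.32 FPKM in leaf and 199.81, 127.62 and 183.47 FPKM in root. FD3 (AT2G27510), the root ferredoxin, held 551, 394.26 and 424.17 FPKM in root and 23.17, 13.78 and 13.35 FPKM in leaf. Their log2 differences were -4.64 (SE 0.23, limma adjusted p = 1.17e-06) and 4.71 (SE 0.25, limma adjusted p = 1.41e-06), and FD1, the other leaf form, was at -4.0. The ferredoxin-NADP reductases followed the same division: FNR1 (-5.90) and FNR2 (-6.60) were leaf-high, RFNR1 (2.54) and RFNR2 (4.19) root-high.

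In the oxidative pentose phosphate pathway, G6PD1 (-3.60) was leaf-high, and G6PD2 (2.86) and G6PD3 (2.89) were root-high, all plastid glucose 6-phosphate dehydrogenases. The transketolase TKL1 was leaf-high, whereas TKL2 held 60.6, 67.2 and 63.43 FPKM in root and 3.54, 4.24 and 3.91 FPKM in leaf. Among phosphoenolpyruvate carboxylases PPC2 (-2.85) was leaf-high and PPC3 (3.90) root-high. PPC1 was called root-high at 1.22 (adjusted p from limma = 0.0123), though not after scaling, and its difference was 0.80 without leaf replicate 1 and its adjusted p was 0.0575 without root replicate 2. Among phosphoenolpyruvate translocators CUE1 was root-high by 0.84, though not after scaling, and PPT2 leaf-high by -2.88.

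Carbonic anhydrases CA1 (-10.28) and CA2 (-9.28) had the largest leaf excess of the list. The NADPH oxidase RBOHC (4.55), of root hairs, was root-high, and RBOHD (0.72) was too, though not after scaling. Of the catalases, CAT3 was leaf-high by -3.34, while CAT2 held 257.74, 235.57 and 258.46 FPKM in root and 522.45, 257.72 and 555.98 FPKM in leaf. The adjusted p of CAT2 (limma) was 0.0499 and lay between 0.103 and 0.147 whenever any library but leaf replicate 2 was left out. Enzymes of ethanol fermentation were root-high: ADH1 held 190.85, 442.7 and 297.54 FPKM in root and 17.87, 8.94 and 14.02 FPKM in leaf, and PDC1 was at 5.27.

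Of 23 phosphate transport genes 19 were tested, 13 were root-high and 5 leaf-high, beside 53.0% and 16.6% of all tested genes. After scaling 9 were root-high and 5 leaf-high, beside 30.2% and 24.8%. On the deposited scale they had a median of 1.78 against 0.79 over all tested genes. PHT1;1 (AT5G43350), a high-affinity Pi importer of the root surface, held 1201.56, 1007.18 and 1130.64 FPKM in root and 3.22, 0.12 and 0 FPKM in leaf. PHT1;2 (AT5G43370) held 329.34, 288.34 and 304.69 FPKM in root and 0.89, 0.12 and 0 FPKM in leaf. Both were high in every root library and near 0 in leaf, with log2 differences of 9.37 (SE 0.50, limma adjusted p = 1.47e-06) and 7.91 (SE 0.26, limma adjusted p = 2.83e-07). They share sequence with each other, so reads could be divided between them in either way.

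The other PHT1 genes were at far lower levels. PHT1;4 held 18.98, 31.72 and 22.98 FPKM in root and 3.98, 1.28 and 0.77 FPKM in leaf, a log2 difference of 3.20 (SE 0.40, limma adjusted p = 0.000172). PHT1;9 held 3.51, 2.67 and 2.79 FPKM in root and at most 0.27 FPKM in leaf. PHT1;3 and PHT1;8 were listed at 0 in leaf, with 1.24, 3.56 and 3.73 FPKM and with 2.21, 4.75 and 3.9 FPKM in root. PHT1;5, which moves Pi between source and sink organs, lay below the filter, at 1.18, 0.57 and 0.44 FPKM in leaf and at most 0.21 FPKM in root. PHT1;6 and PHT1;7 were also below it, at most at 0.17 FPKM in any library, as was the mitochondrial carrier PHT3;2.

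PHO1 (AT3G23430), the Pi exporter that loads xylem, held 261.14, 265.4 and 253.74 FPKM in root and 2.75, 4.62 and 6.98 FPKM in leaf, a log2 difference of 5.56 (SE 0.27, limma adjusted p = 9.96e-07). Its relative PHO1;H1 was not called, with 8.22, 17.36 and 10.64 FPKM in root overlapping 4.05, 7.54 and 13.87 FPKM in leaf. PHF1 (2.78), which PHT1 proteins need to leave the ER, was root-high on both scales. The glycerol 3-phosphate permease family gene G3Pp1 (1.78), the mitochondrial carrier PHT3;1 (1.06), the Golgi transporter PHT4;6 (1.17) and the SPX-domain transporter gene AT1G63010 (1.17) were root-high on the deposited scale but not after scaling. The root plastid transporter PHT4;2 (2.78) was root-high on both.

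Carriers of chloroplast membranes were leaf-high. PHT4;1 (AT2G29650), of the thylakoid membrane, held 117.68, 114.82 and 154.74 FPKM in leaf and 2.46, 2.41 and 3.01 FPKM in root, a log2 difference of -5.16 (SE 0.20, limma adjusted p = 4.4e-07). PHT2;1 (AT3G26570), of the chloroplast envelope, held 109, 79.94 and 108.93 FPKM in leaf and 12.99, 12.61 and 14.81 FPKM in root. PHT4;4 (-1.60) and PHT4;5 (-1.75) were leaf-high with groups that did not overlap. PHT4;3 was called at -0.95 (limma adjusted p = 0.0167), and its adjusted p lay between 0.0529 and 0.0697 without leaf replicate 3, root replicate 1 or root replicate 2.

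Among 14 Pi signalling genes 13 were tested, 9 were root-high and 1 leaf-high, and 7 and 1 after scaling, with a median of 1.45. Over all tested genes the shares were 53.0% and 16.6%, and 30.2% and 24.8% after scaling. IPS1 (AT3G09922), a non-coding RNA that sequesters the microRNA miR399, was listed at 0 in every leaf library and held 21.21, 49.7 and 45.19 FPKM in root. AT4 (AT5G03545), of the same non-coding family, held 300.51, 391.7 and 488.94 FPKM in root and 12.32, 24.14 and 4.33 FPKM in leaf, a log2 difference of 5.0 (SE 0.50, limma adjusted p = 4.62e-05). The groups did not overlap in either gene. WRKY75, a regulator of root architecture and Pi starvation genes, held 25.36, 25.88 and 16.06 FPKM in root and 2, 0 and 0 FPKM in leaf.

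The sensor SPX1 held 63.57, 136.89 and 97.02 FPKM in root and 32.21, 36.14 and 29.63 FPKM in leaf, a log2 difference of 1.51 (SE 0.27, limma adjusted p = 0.00139). SPX4 (1.45), the ubiquitin ligase NLA (1.69), which targets PHT1 proteins, and the ferroxidase LPR1 (1.56), which arrests root growth under Pi shortage, were root-high on both scales. Its relative LPR2 was leaf-high, at 74.98, 53.6 and 61.66 FPKM in leaf and 36.92, 30.76 and 31.45 FPKM in root. PHL1 (0.81), a relative of PHR1, and PDR2 (1.1), an ER ATPase that acts with LPR1, were not called after scaling, and PDR2 was at 0.73 without leaf replicate 1 and lost its call without root replicate 2 (limma adjusted p = 0.0681) or root replicate 3 (0.0561). SPX3 lay below the filter.

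The regulators at the head of the pathway were present in both organs. PHR1 (AT4G28610) held 29.14, 34.6 and 33.34 FPKM in root and 12.87, 21.44 and 28.9 FPKM in leaf, and was not called (0.66, SE 0.28, limma adjusted p = 0.0659), although its libraries did not overlap. PHO2 (AT2G33770), the ubiquitin-conjugating enzyme that degrades PHO1 and is cut by miR399, held 88.7, 78.65 and 79.99 FPKM in root and 48.73, 58.24 and 93.07 FPKM in leaf, with overlapping groups. SPX2 (0.24, SE 0.20) was not called either.

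**Figure D4:**
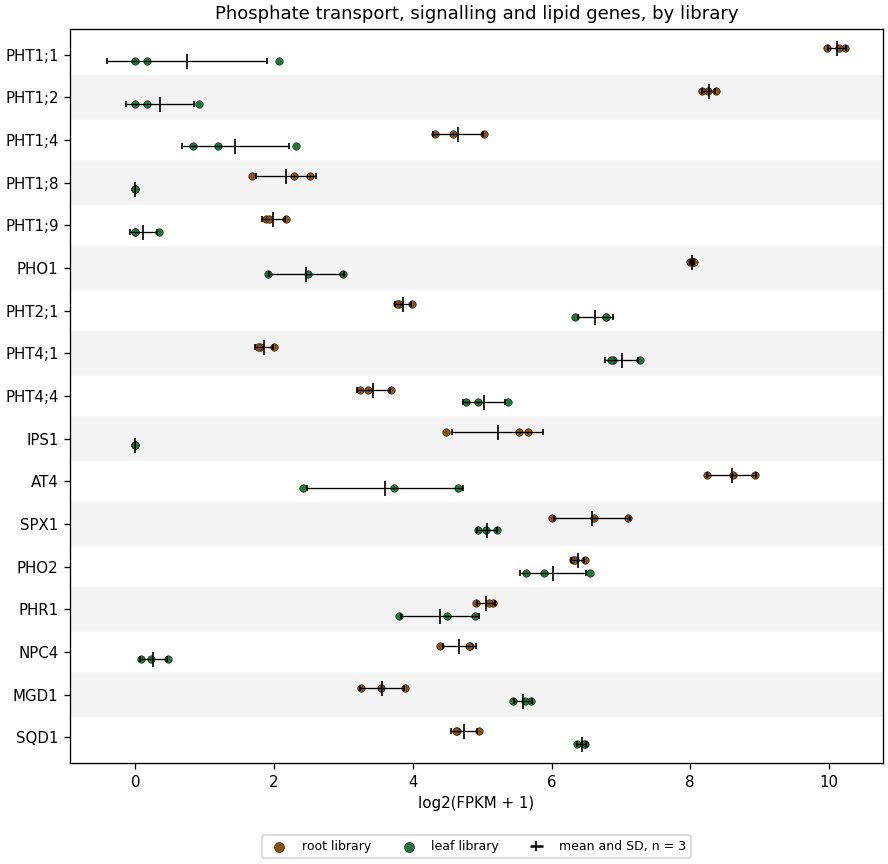
Levels of 17 phosphate and lipid genes as log2(FPKM + 1) in each of the 3 root (brown) and 3 leaf (green) libraries of wild-type plants at 0 µM Pi, with mean and SD. PHT1;1, PHT1;2, PHO1, IPS1 and AT4 are high in root, PHT2;1, PHT4;1, MGD1 and SQD1 are high in leaf, and the libraries of PHO2 overlap.

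Pi shortage is also known to swap phospholipids for galactolipids and sulfolipids. In the membrane lipid list 14 of 15 genes were tested, 4 root-high and 6 leaf-high, and 2 and 6 after scaling. The leaf-high genes included synthases of plastid lipids: MGD1 (AT4G31780), of monogalactosyldiacylglycerol, held 42.48, 51.09 and 48.1 FPKM in leaf and 10.63, 8.52 and 13.79 FPKM in root, and SQD1 (-1.70) and UGP3 (-1.73) supply sulfolipid precursors. NPC4 (AT3G03530), a phospholipase C, was root-high, at 20.04, 27.23 and 26.95 FPKM in root and 0.38, 0.17 and 0.06 FPKM in leaf, a log2 difference of 4.41 (SE 0.24, limma adjusted p = 1.8e-06). SRG3, a glycerophosphodiester phosphodiesterase, was root-high too and held 69.91, 89.32 and 85.94 FPKM in root and 28.34, 20.66 and 13.11 FPKM in leaf. MGD3, an inducible galactolipid synthase, was not called, at 2.38 to 3.59 FPKM in root and 1.56 to 4.4 FPKM in leaf. Of 6 tested acid phosphatase and RNase genes 1 was root-high, the phosphatase PS2 (1.68), and 1 leaf-high, and 1 and 3 after scaling.

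The windows of 250 bases before the annotated start of 4 root-high genes are shown because they hold a P1BS element, the PHR1 binding motif GNATATNC, marked in capitals and searched on both strands. They come from the RefSeq annotation of TAIR10.1. PHT1;2 is at chr5:17415448-17415697 on the plus strand, AT4 at chr5:894332-894581 on the plus strand, NPC4 at chr3:845097-845346 on the minus strand and SRG3 at chr3:350011-350260 on the minus strand.
PHT1;2: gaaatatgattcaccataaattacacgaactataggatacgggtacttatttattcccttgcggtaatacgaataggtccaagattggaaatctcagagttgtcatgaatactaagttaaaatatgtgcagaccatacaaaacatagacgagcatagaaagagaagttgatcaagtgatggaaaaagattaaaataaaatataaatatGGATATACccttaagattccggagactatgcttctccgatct
AT4: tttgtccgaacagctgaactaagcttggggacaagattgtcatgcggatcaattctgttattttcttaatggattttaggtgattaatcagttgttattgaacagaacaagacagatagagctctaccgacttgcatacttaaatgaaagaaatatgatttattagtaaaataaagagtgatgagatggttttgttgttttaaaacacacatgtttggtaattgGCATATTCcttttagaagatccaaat
NPC4: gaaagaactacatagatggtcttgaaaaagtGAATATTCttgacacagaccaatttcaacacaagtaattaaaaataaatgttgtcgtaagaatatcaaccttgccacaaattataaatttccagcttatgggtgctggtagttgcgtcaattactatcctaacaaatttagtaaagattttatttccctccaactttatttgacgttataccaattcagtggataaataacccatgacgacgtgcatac
SRG3: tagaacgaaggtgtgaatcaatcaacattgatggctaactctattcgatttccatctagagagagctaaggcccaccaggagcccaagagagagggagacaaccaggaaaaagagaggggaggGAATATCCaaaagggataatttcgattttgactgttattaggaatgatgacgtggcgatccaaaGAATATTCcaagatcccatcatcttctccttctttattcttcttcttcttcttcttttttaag
A P1BS match was found in 3 of 23 Pi transport windows (13.0%), 2 of 14 Pi signalling windows (14.3%) and 5 of 15 lipid remodelling windows (33.3%), against 5.46% of all windows. Over the lists of other themes the share ran from 0.00%, as in root hair genes, to 25.0% in mitosis and in sulfate transport genes (2 of 8 each). Differences between these shares were not tested. Genes root-high and leaf-high by 4-fold or more had a P1BS match in 5.88% and 5.63% of windows. The element was also found before PAH1 and PLDP2, of lipid remodelling, which were not called between organs, and before the galactolipid synthase gene MGD2, which was leaf-high by -1.21. Further matches lay before PHT3;1, root-high by 1.06 but not called after scaling, and before PHT1;7 and SPX3, which lay below the filter. No match lay in the windows of IPS1, PHT1;1, PHO1 or SPX1, which were root-high.

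Nitrogen genes were root-high in 17 of 24 tested cases of 27 listed and leaf-high in 4, beside 53.0% and 16.6% of all tested genes. After scaling the counts were 12 and 6, beside 30.2% and 24.8%. NPF7.3 (AT1G32450), which loads nitrate into xylem, held 243.97, 372.44 and 287.07 FPKM in root and 4.74, 5.47 and 17.99 FPKM in leaf, a log2 difference of 5.06 (SE 0.43, limma adjusted p = 1.84e-05). AMT1;3 (7.16), an ammonium importer, and NRT3.1 (5.15), a partner protein of nitrate importers, were root-high too. Nitrate reductase was divided between its genes, with NIA1 at 920.05, 837.99 and 847.27 FPKM in root and 35.53, 17.35 and 39.24 FPKM in leaf, and NIA2 at 206.19 to 242.56 FPKM in root and 214.49 to 404.19 FPKM in leaf. NIA2 was not called on the deposited scale and leaf-high after scaling. Plastid glutamine synthetase GS2 (-2.89) and NPF2.13 (-4.66), which exports nitrate from old leaves, were leaf-high. GLT1, the NADH-dependent glutamate synthase, is a very long gene whose difference of 2.07 was 1.39 without leaf replicate 1.

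Iron genes were root-high in 17 of 25 tested cases of 26 listed and leaf-high in 5, beside 53.0% and 16.6% of all tested genes. After scaling 14 and 6 were called, beside 30.2% and 24.8%. IRT1 (AT4G19690), the root iron importer, held 248.54, 211.62 and 266.73 FPKM in root and 0.08, 0 and 0.29 FPKM in leaf, a log2 difference of 7.76 (SE 0.20, limma adjusted p = 1.59e-07). F6'H1 (6.94), of coumarin synthesis, and the ferric reductase FRO2 (5.48) were root-high. The chloroplast and leaf reductases FRO6 (-6.72) and FRO7 (-6.3), which share sequence, were leaf-high. Nicotianamine synthases were divided, with NAS2 listed at 0 in leaf and at 59.04 to 100 FPKM in root, and NAS3 listed at 0 in root and at 6.6 to 37.65 FPKM in leaf. The ferritins, iron stores of plastids, were at 1 root-high and 2 leaf-high genes of 4 after scaling and 2 and 1 before it.

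Potassium genes showed a similar division between root and shoot channels. AKT1 (AT2G26650), the inward channel of root epidermis, held 71, 88.43 and 71.46 FPKM in root and 0.88, 1.34 and 1.75 FPKM in leaf, and SKOR (4.29), which releases potassium into xylem, was root-high too. AKT2, the phloem channel, held 10.49, 14.9 and 20.66 FPKM in leaf and 0.9, 1 and 0.5 FPKM in root. Of 7 tested genes 5 were root-high and 2 leaf-high on both scales. For sulfate, the importers SULTR1;2 (5.99) and SULTR1;1, listed at 0 in leaf, were root-high, and the vascular transporters SULTR2;1 (-3.37) and SULTR2;2 (-2.25) leaf-high.

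Aquaporins were root-high in 17 of 21 cases, and in 12 after scaling, beside 53.0% and 30.2% of all tested genes. They had a median of 2.37, and summed to 21646, 15490 and 19975 FPKM in root and 8892, 7208 and 6649 FPKM in leaf. The tonoplast aquaporin TIP2;3 held 427.46, 257.87 and 359.32 FPKM in root and 1.51, 0 and 0.41 FPKM in leaf. PIP2;6 was the leaf-high member, a plasma membrane aquaporin at 645.22, 594.6 and 565.83 FPKM in leaf and 13.56, 2.35 and 6.31 FPKM in root, a log2 difference of -6.41 (SE 0.46, limma adjusted p = 6.77e-06). PIP1;4 and PIP1;5 were not called on the deposited scale and were leaf-high after scaling.

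Of 14 tested hormone genes 11 were root-high and 3 leaf-high, beside 53.0% and 16.6% of all tested genes. Scaling left 10 and 3, beside 30.2% and 24.8%. CYP735A2, which makes trans-zeatin, held 34.23, 49.99 and 32.33 FPKM in root and at most 0.07 FPKM in leaf, and ABCG14, which sends cytokinin to the shoot, was at 4.27. The auxin exporter PIN2 (4.95) was root-high, whereas its relatives PIN4 (-2.25) and PIN7 (-1.54) were leaf-high. Flavonoid genes were root-high in 8 of 9 tested cases and 7 after scaling, led by FLS1 (4.08) and CHS (3.28), while the anthocyanin regulator MYB75 was leaf-high, at 16.86, 16.02 and 16.87 FPKM in leaf and 2.91, 0.5 and 2.07 FPKM in root.

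Clock and reference genes depended on the scale. Of 11 clock genes 3 were root-high and none leaf-high on the deposited scale, against 1 and 5 after scaling. TOC1 held 52.78, 47.63 and 51.55 FPKM in root and 44.55, 40.18 and 47.82 FPKM in leaf and was leaf-high after scaling alone, and LHY (1.58) was the clock gene called root-high on both. Of 11 genes often used as references, 7 were root-high before scaling and 2 after it, the actins ACT2 (1.45) and ACT8 (2.28), and their median of 0.69 lay close to the 0.79 of all tested genes.

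The largest differences outside these lists were chosen by size. After PYK10, the largest root excesses were those of MLP328 (11.26), AIR1 (10.99), the extensin-like gene AT1G26250 (10.82), the glycine-rich gene AT2G05510 (10.43), AT4G12545 (10.25), MLP34 (10.18), the defensin-like gene AT4G22212 (9.84), AT4G33720 (9.80) and the lectin gene JAL33 (9.76). AIR1 and AT4G12545 share sequence with near-identical copies. MLP328 (AT2G01520), annotated as a major latex-like protein, held 5019.98, 4605.88 and 3936.01 FPKM in root and 2.11, 0.62 and 0.22 FPKM in leaf.

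The largest leaf excess was that of AT1G23130, annotated in the polyketide cyclase superfamily, with 4372.67, 2384.57 and 2735.45 FPKM in leaf and 0.47, 0.77 and 0 FPKM in root, a log2 difference of -11.12 (SE 0.29, limma adjusted p = 1.59e-07). It was followed by RBCS2B, OEP6 (-10.41) of the plastid outer envelope, CA1, ECS1 (-10.16), AT1G76960 (-10.08), PCC1 (-10.00), the germin-like GER1 (AT1G72610, -9.79), the aldolase FBA5 (-9.78) and ESM1 (-9.37), an epithiospecifier modifier. PCC1 varied among leaf libraries, at 5922.77, 11223.78 and 1602.21 FPKM, and shares sequence with near-identical copies. All 20 of these genes had root and leaf libraries that did not overlap.

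The 10 most abundant root genes were led by the metallothionein MT1A, at 19538.4, 17119.33 and 23352.54 FPKM in root and 4562.6, 1561.61 and 2681.69 FPKM in leaf, which shares sequence with other genes. PYK10, the glycine-rich GRP9 (5.99), MLP328, AT1G26250, DR4 (9.17), AIR1 and EXT3 (6.4) were root-high as well. The dehydrin gene AT1G54410 (-0.04) and the peroxidase PRXR1 (0.09) were not called on the deposited scale, and their root and leaf libraries overlapped at 4850.83 to 7259.35 FPKM for the dehydrin gene and 3172.76 to 5544.36 FPKM for PRXR1.

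The organ difference was then set beside the same difference in other libraries of the study, which share no library with the 6 described so far. In KO at 0 µM 56.2% of tested genes were root-high and 19.7% leaf-high, in OE at 0 µM 56.3% and 16.7%, and in the wild type at 200 µM 44.9% and 16.8%. At 4-fold or more the shares were 19.5% and 9.60% in KO, 18.9% and 8.46% in OE, and 18.5% and 8.83% in the wild type at 200 µM. Of the 3742 genes root-high by 4-fold or more, 98.8% were also root-high in KO, 99.0% in OE and 98.5% in the wild type at 200 µM. Of the 1705 leaf-high ones the shares were 99.5%, 99.1% and 98.9%. Across genes, which are not independent replicates, the log2 differences had Pearson's r of 0.979, 0.978 and 0.972 with those of KO, OE and the wild type at 200 µM.

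PYK10 was at 12.49 in KO, 11.83 in OE and 9.56 at 200 µM, and LHCB1.3 at -5.33, -4.39 and -5.79. PHT1;1 was at 9.90 and 9.47 in KO and OE and at 6.99 in the wild type at 200 µM. AT4 was at 2.21, 2.95 and 3.89 in KO, OE and the wild type at 200 µM, against 5.0 in the wild type at 0 µM. These values were not tested against each other, apart from the effect of Pi in the wild type.

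**Figure D5:**
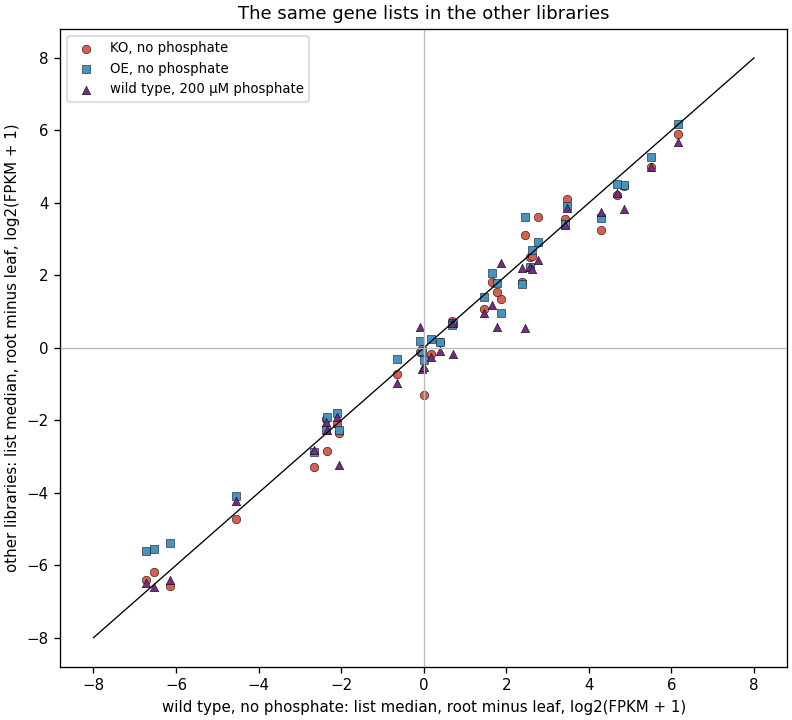
Median log2 difference, root minus leaf, of 33 gene lists in the wild type at 0 µM Pi (x axis) and in KO at 0 µM, OE at 0 µM and the wild type at 200 µM (y axis), each from 3 root and 3 leaf libraries. Each median covers the members tested in those libraries, so its genes can differ between the axes. Medians run from -6.73 for light harvesting to 6.17 for myrosinases and ER bodies in the wild type at 0 µM, and some lists lie off the line of equality, such as flavonoid genes at 2.45 there and at 3.62 in OE and 0.56 at 200 µM.

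Whether the organ difference itself changed with Pi was tested over the 12 wild-type libraries as the difference at 0 µM minus that at 200 µM. Of 19253 genes 1 was called, IPS1, 0.00519% of those tested, and 1150 had an unadjusted p under 0.05. IPS1 was at 0, 0.35 and 0.37 FPKM in root and 0, 0.32 and 0 FPKM in leaf at 200 µM, so that its root level without Pi stood above all 9 other wild-type libraries. Phosphate transport genes had a median log2 difference of 1.78 at 0 µM over 19 genes and of 0.57 at 200 µM over 16, and no member was called in this test. These medians cover different genes and are not directly comparable. PHT1;3, PHT1;8 and PHT1;9, root-high at 0 µM, lay below the filter at 200 µM, with root means of 0.447, 0.187 and 1.85 FPKM there. The organ difference of PHT1;1 was larger by 2.38 at 0 µM (limma adjusted p = 0.771) and that of NPC4 by 1.80 (limma adjusted p = 0.263), neither past the threshold, NPC4 with 5.61, 7.09 and 5.08 FPKM in root at 200 µM.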

How the data were processed

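Poly(A) RNA was made into strand-specific dUTP libraries, per the labels' protocols, and Trimmomatic, HISAT2 2.2.1, DESeq2 and TAIR10 are named in the submitters' processing notes. The deposited values per library are FPKM, as the values show: times the coding length in kb they sum to between 974165 and 1016893. The counting tool and strand setting, not given in the sources used here, remain unknown, so a gene and its antisense partner may share reads. Depth came from low values, all whole multiples of 1 read within 0.1 read in the 6 libraries, and covers counting error only.

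Values entered as log2(FPKM + 1), with a mean of at least 1 FPKM, a limma fit with trend (limma 3.58.1, R 4.3.3) on the 6 libraries, and on 12 for the effect of Pi. No batch could be compared, since all carry batch label 1. Simulated 2-fold and 4-fold differences among the 19302 genes were recovered in 78% and 97% of cases, and 3.5% of 200 unchanged genes were called. The 34 lists held 540 loci, and genes sharing over 20% of 31-base words are called uncertain. Named genes were the 10 largest differences and 10 highest levels per organ, up to 4 per direction in each list with exceptions, and all Pi transport, Pi signalling and leaf-type and root-type enzyme genes, as room allowed. The members and lists were chosen with earlier results of these data known. Figures were drawn with matplotlib 3.10.9. Whether the replicate numbers pair root and leaf libraries is not known, and the main fit did not pair them. Other scalings, pseudocounts, filters, fits and left-out libraries were tried as alternatives.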

Additional observations from a re-analysis of the deposited data

Results flagged for a closer look

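IPS1 was the gene whose organ difference differed between Pi levels in wild-type plants by a test of that difference. The difference, root minus leaf, was larger by 5.06 (SE 0.43, limma adjusted p = 0.000466) on the log2(FPKM + 1) scale at 0 µM than at 200 µM. Its root libraries held 21.21, 49.7 and 45.19 FPKM at 0 µM and at most 0.37 FPKM at 200 µM, and its leaf libraries at most 0.32 FPKM at either level. At these low leaf and 200 µM levels the fitted value depends on the 1 FPKM added before taking logs, and no gene was called with 0.1 added.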

How the results depend on the processing

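Root-high genes numbered 5822 after median-of-ratios scaling and 5932 after quantile normalization, and leaf-high genes 5243 after the latter, where root-high genes made up 53.1% of calls. Genes root-high by 4-fold or more numbered 1814 with 5 FPKM added and 2200 after quantile normalization, which gave 2411 leaf-high genes at 4-fold and so turned the majority of large differences to leaf. Among the genes of the lists and those named by size, these changed sign under a scaling. Called root-high before it and not called after it were, with median-of-ratios scaling, SCR (-0.23), CYP83B1 (-0.02), NIR1 (-0.02), FER3 (-0.10), APR3 (-0.16), RBOHD (-0.03), ELF3 (-0.02), ACT7 (-0.13) and PP2AA3 (-0.05), and with quantile normalization SCR (-0.10), 4CL3 (-0.24) and RVE8 (-0.11). Not called before it and leaf-high after it were, with median-of-ratios scaling, GLDP2 (-0.74), BCAT4 (-0.70), YSL3 (-0.64), PAP12 (-0.66), PAP26 (-0.48), PIP1;5 (-0.74) and TOC1 (-0.55), and with quantile normalization APL2 (-0.58), YSL3 (-0.52), PLDP2 (-1.16) and CCA1 (-0.92), while AT1G54410 (1.66) became root-high. The balance of calls also turned from root to leaf with median-of-ratios scaling for clock genes, ferritins and leaf-type and root-type enzymes. With 1 library left out, root-high genes numbered 8577 to 10627 and leaf-high genes 2943 to 3402. Of 466 called genes in the lists or named by size, 25 lost the call without at least 1 library, all with a log2 difference of at most 1.77 in size. For the effect of Pi on the organ difference, 0 genes were called with 0.1 FPKM added, 15 in a fit of all 36 libraries, 1 to 3 with 1 library left out, and 0 with voom on recovered reads, an alternative added after seeing the data, which called 10178 root-high and 3070 leaf-high genes. Same-numbered root and leaf libraries deviated together with r of 0.24, 0.11 and 0.01, and differently numbered ones with r between -0.23 and 0.21. With 3 libraries per organ these values cannot decide whether the numbers pair root with leaf. With a replicate block 10608 genes were root-high, 3309 leaf-high and 1 changed with Pi. Depth of 5380000 to 11430000 reads limits genes near 1 FPKM most.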

Other observations

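Gene families were drawn up by symbol or annotation after values of these data had been seen, and are described by counts alone, beside 53.0% root-high and 16.6% leaf-high genes among all tested. Root-high genes numbered 48 of 54 tested class III peroxidases, all 15 tested laccases and all 14 tested proline-rich extensin-like proteins, with median log2 differences of 5.76, 3.40 and 7.10. The peroxidase gene AT2G38380 averaged 1619 FPKM in root and 1.34 FPKM in leaf. Among these families, 9 peroxidases, 1 laccase and 1 extensin-like gene were listed at 0 in leaf and passed the filter through root alone. Of other wall families, 18 of 28 XTH enzymes were root-high and 4 leaf-high, and 15 of 26 expansins were root-high and 9 leaf-high, from EXPA5 at -5.29 to EXPB2, listed at 0 in leaf and at 81.4 FPKM in root.

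Among transcription factors, 42 of 59 tested WRKY genes were root-high and 5 leaf-high, and 30 and 9 after median-of-ratios scaling, led by WRKY65 (6.2) and WRKY70 (-4.45). TCP factors ran the other way, with 3 of 18 root-high and 13 leaf-high, and 1 and 13 after scaling. Of 7 YABBY factors 4 were tested, 3 of them listed at 0 in root and thus in the test through leaf alone, and the 4 were leaf-high. SAUR genes, small auxin-responsive messages, were leaf-high in 29 of 57 cases and root-high in 17 (30 and 15 after scaling). That count leans on the filter, since 20 of the 57 were listed at 0 in root, and the median log2 difference was 0.91 over the 34 members above 0 in both organs against -1.53 over all 57. Cysteine-rich receptor kinases were leaf-high in 21 of 33 cases and root-high in 8, and 6 of the 33 were listed at 0 in root. Ribosomal protein genes were root-high in 231 of 279 cases, and in 198 after scaling, with 30 and 36 leaf-high. The leaf-high ones with the largest differences included PSRP3/1 (-4.36), RPL12-A (-3.54) and RPL12-C (-3.42), which averaged 331.5, 610.1 and 465.1 FPKM in leaf.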
